A study of Mus musculus with 6 samples.

Results

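The genes described are 31 enzymes with which the liver breaks down amino acids and handles single-carbon units, read in 6 mouse liver tumour libraries. They were chosen by name: a member is a row of the deposited table whose gene symbol equals a listed enzyme. All 31 were found among the 55536 genes of the count table, each under a single Ensembl identifier, and all 31 passed the filter on low counts that left 17423 genes for testing. The tumours were grown in male C3H mice aged 6 to 8 weeks, by placing 1000000 cells of HCA-1, a mouse hepatocellular carcinoma line, below the surface of the liver. The Control group holds 3 libraries from untreated mice (replicates 3, 4 and 5). The TSDP group holds 3 libraries (replicates 1, 2 and 5). Its mice were given nanoparticles that carried DNIC, a dinitrosyl iron complex that releases nitric oxide, and the kinase inhibitor sorafenib. These were injected intravenously 6 times, from day 10 to day 23, and every tumour was taken on day 24. Whether the untreated mice were given an empty particle is not stated, and no group had either agent alone, so particle, DNIC and sorafenib cannot be told apart. HCA-1 is 1 cell line, and a tumour in the liver borders on normal liver of the host.

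Hepatocytes are the main site in the body for degrading surplus amino acids. Tyrosine is cut down to fumarate and acetoacetate, and tryptophan enters the kynurenine route, whose end products include the precursor of NAD. Methionine is turned into S-adenosylmethionine, the general methyl donor, and the homocysteine that is left is either remethylated with betaine or passed on to cysteine. The single-carbon units set free from glycine, serine, histidine and choline-derived methyl groups are collected on folate. Most of these enzymes are abundant in differentiated hepatocytes and are known to be reduced in hepatocellular carcinoma.

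Total counts lay between 32130808 and 38953397 per library. Hepatocyte marker levels differed widely between the libraries. The summed level of 14 hepatocyte markers, plasma protein genes such as Alb and Ttr that share no gene with the 31, was 118 CPM (counts per 1000000 counts, with library sizes scaled by TMM factors) in Control 3, 27050 in Control 4 and 4199 in Control 5. In TSDP 1, 2 and 5 it was 33799, 65536 and 21226 CPM. The groups overlapped in this sum, since Control 4 stood above TSDP 5. Single markers differed: 6 of the 14 were higher in TSDP without overlap, against 13.0% of all genes tested. Alb was among them, at 10350 CPM in Control 4 and 11314 CPM in TSDP 5. Fga, a fibrinogen gene, was not, at 4015 CPM in Control 4 and 1694 CPM in TSDP 5. Kupffer cell markers (5 genes), which mark the resident macrophages of the liver, summed to 39.6, 121 and 63.4 CPM in Control 3, 4 and 5 and to 182, 366 and 123 CPM across TSDP 1, 2 and 5. All 14 hepatocyte markers and all 5 Kupffer markers had counts in every library. In bulk RNA a smaller number of hepatocytes and less RNA in each hepatocyte cannot be told apart. The part of the hepatocyte marker level in the values of the 31 genes was not tested, except where a value is given relative to the markers or with them as a covariate. Control 3 also stood apart in other markers, with 649 CPM for 5 erythroid markers against 15.1 to 52.6 CPM in the other libraries. Its T cell markers summed to 18.5 CPM against 46.3 to 65.8 CPM, and its dendritic cell markers to 14.1 CPM against 29.7 to 53.8 CPM.

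All 31 genes had higher mean levels in TSDP than in Control tumours, against 47.3% of all genes tested, and none passed the test. Their log2 fold changes (TSDP over Control, edgeR's quasi-likelihood test) ran from 0.55 for Afmid to 3.96 for Tat, with a median of 2.53, against a median of -0.02 over all 17423 genes tested. The 14 hepatocyte markers had a similar median of 2.21, with 14 of 14 positive and 0 of 14 at an unadjusted p under 0.05. Benjamini-Hochberg adjusted p-values over all genes lay between 0.326 and 0.598 for the 31. Of the 31, 0 passed at 0.05, as did 0% of all genes in either direction. At an unadjusted p under 0.05 there were 21 of the 31, all higher, against 8.60% of all genes tested that were higher at that level. That count varied with the library left out. It was 27, 31 and 8 without Control 3, 4 and 5, and 19, 9 and 21 without TSDP 1, 2 and 5. Leaving out a library changes the test for every gene, and a share of all genes is given only without Control 3 (6.58%). The range is therefore not read as a trait of the 31. The median log2 fold change moved as well, to 4.15 without Control 4.

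The values of the 2 groups separated without overlap, with all TSDP libraries above all Control libraries, for 30 of the 31 genes, against 13.0% of all genes tested. Bhmt was the exception. The reverse order held for 0 of the 31, against 8.76% of all genes. For 30 of the 31 the log2 fold change was 1 or more, against 8.84% of all genes and 14 of the 14 hepatocyte markers. The libraries also kept a common order: 27 of the 31 were lowest in Control 3 and highest in TSDP 2, against 17.9% of all genes tested. The hepatocyte markers had that order in 14 of 14, and 6 of the 14 separated without overlap. DESeq2, an alternative test, called 10 of the 31 as higher at an adjusted p under 0.05, against 2.98% of the 18366 genes for which it gave an adjusted p, and 0 as lower, against 0.397%. Those called were Fah, Ido2, Acmsd, Ahcy, Cth, Sardh, Shmt1, Gldc, Prodh and Csad, and limma-voom called 0 of all genes. At an unadjusted p under 0.05 limma-voom had 30 of the 31 as higher, against 10.6% of all genes, and its median log2 fold change for the 31 was 3.56.

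**Figure D1:**
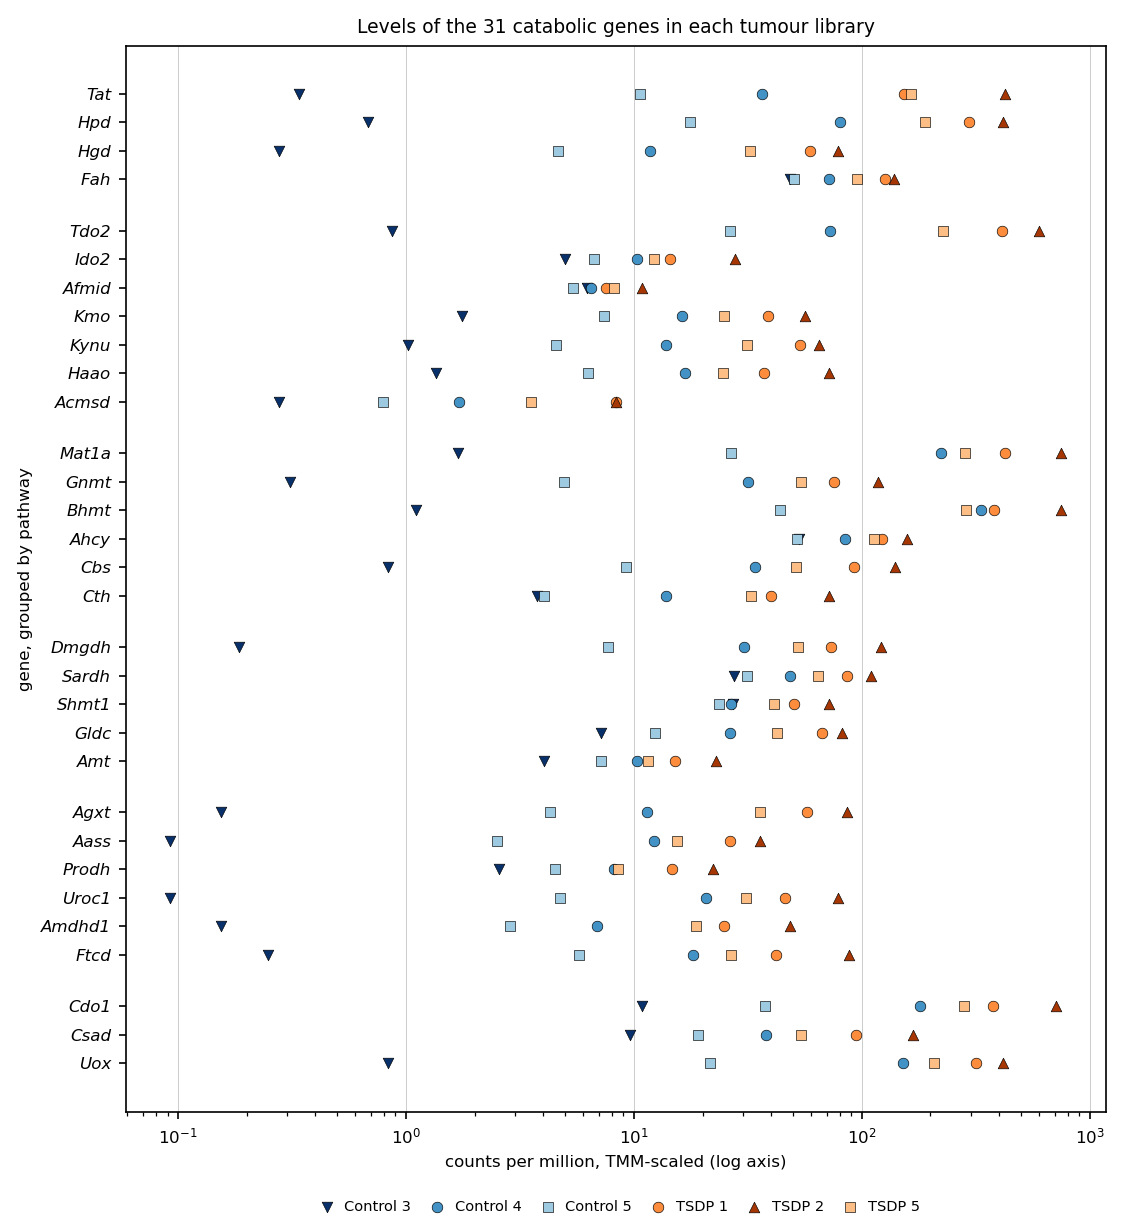
Each point is the level of 1 gene in 1 library, in CPM on a log axis, for the 31 genes grouped by pathway; blue marks are Control 3, 4 and 5 and orange marks TSDP 1, 2 and 5. For 30 of the 31 genes the 3 TSDP points lie to the right of all Control points, and for 15 of the 31 Control 3 lies at under 1% of the TSDP mean.

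The stretches of DNA just before the starts of the 31 genes were read from the RefSeq promoter table (GRCm38.p6). It held 26 of the 31 genes with 27 promoters; Mat1a, Ido2, Kynu, Cdo1 and Cth had no entry. In the 250 bases before the start, the nuclear receptor half-site AGGTCA, searched on both strands, was present in 11 of the 27 promoters (40.7%) and in 14.0% of all 32851 promoters of the table. The other motifs were searched on both strands as well. The C/EBP motif TTGCNNAA was found in 3 of the 27 (11.1%, against 9.56% of all). The letters TATAAA of the TATA box were found in 3 (11.1%, against 12.4%). Counted from the start, these lay at -29 in Ftcd, at -229 in Tdo2 and, on the opposite strand, at -139 in Hgd. The HNF1 half-site GTTAAT was found in 2 (7.41%, against 6.43%), the glucocorticoid half-site TGTTCT in 2 (7.41%, against 16.1%) and the E-box CACGTG in 1 (3.70%, against 6.02%). The FOXA motif TGTTTAC, the HNF4A motif CAAAGTCCA and the full palindromic HNF1 motif were found in 0 of the 27, against 3.17%, 0.384% and 0.00913% of all. A match of letters is a description and shows no binding.

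The promoters below are shown as 3 with the half-site within 150 bases of the start and 2 with it farther out. The last, Ahcy, belongs to a gene that stayed well counted in Control 3, where hepatocyte markers were lowest. These promoters run 5′ to 3′ on the strand of the gene and end at the base before its start. Capitals mark AGGTCA (here as its reverse complement, TGACCT) and, in Hgd and Aass, also the reverse complement of the C/EBP motif. Hgd covers chr16:37580003-37580152 (plus strand), Aass chr6:23132987-23133136 (minus), Uroc1 chr6:90333139-90333288 (plus), Gnmt chr17:46729166-46729375 (minus) and Ahcy chr2:155074498-155074707 (minus).
Hgd: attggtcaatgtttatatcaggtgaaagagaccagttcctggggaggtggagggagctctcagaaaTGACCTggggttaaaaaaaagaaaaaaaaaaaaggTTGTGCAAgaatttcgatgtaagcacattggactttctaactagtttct
Aass: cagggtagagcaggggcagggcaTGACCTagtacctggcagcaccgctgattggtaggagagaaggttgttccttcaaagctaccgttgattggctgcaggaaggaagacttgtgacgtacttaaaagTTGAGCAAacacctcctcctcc
Uroc1: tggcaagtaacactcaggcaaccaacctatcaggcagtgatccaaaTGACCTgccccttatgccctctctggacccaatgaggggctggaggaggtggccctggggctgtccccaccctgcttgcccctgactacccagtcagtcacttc
Gnmt: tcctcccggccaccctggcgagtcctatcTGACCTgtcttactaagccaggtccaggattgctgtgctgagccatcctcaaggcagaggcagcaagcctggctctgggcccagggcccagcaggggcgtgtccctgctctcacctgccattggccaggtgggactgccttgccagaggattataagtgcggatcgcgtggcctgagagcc
Ahcy: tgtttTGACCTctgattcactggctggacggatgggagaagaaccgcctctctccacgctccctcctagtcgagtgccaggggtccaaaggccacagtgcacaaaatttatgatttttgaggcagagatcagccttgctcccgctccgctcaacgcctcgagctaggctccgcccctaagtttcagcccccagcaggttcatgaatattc

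The tyrosine route held the member with the largest fold change. Tat (ENSMUSG00000001670), tyrosine aminotransferase, which starts the route and is a classical target of glucocorticoids, was counted at 0.340, 36.5 and 10.7 CPM across Control 3, 4 and 5, against 153, 424 and 164 CPM across TSDP 1, 2 and 5. The lowest TSDP value was thus several-fold above the highest Control value. Its mean was 15.8 CPM ± 18.6 across Control, against 247 CPM ± 153 across TSDP (SD, n = 3 each), which gave a log2 difference of 3.96 ± 1.38 (SE; by edgeR, adjusted p = 0.342). Hpd, the dioxygenase that makes homogentisate, stood at 0.680, 79.8 and 17.6 CPM across Control, against 294, 417 and 189.7 CPM across TSDP, and Hgd, which opens the ring of homogentisate, at 0.278, 11.7 and 4.65 CPM against 59.2, 78.7 and 32.3 CPM. Both followed the order of Tat within Control. Fah, fumarylacetoacetate hydrolase, the last enzyme of the route, spread far less: it stood at 48.4, 71.5 and 50.1 CPM across Control, against 126, 139 and 95.3 CPM across TSDP. Its log2 fold change was smaller, 1.08 ± 0.21 (SE), and its unadjusted edgeR p of 0.00195 was the smallest of the 31 (adjusted p = 0.326). Control 4 stood 107-fold above Control 3 for Tat and 117-fold for Hpd, while Fah stayed within a few-fold over all 6 libraries.

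In the tryptophan route the entry enzyme of liver had the largest value. Tdo2 (ENSMUSG00000028011), tryptophan 2,3-dioxygenase, was counted at 0.865, 72.7 and 26.4 CPM across Control 3, 4 and 5, against 413, 596 and 226 CPM across TSDP 1, 2 and 5. The groups did not overlap, and the log2 fold change was 3.63 ± 1.32 (SE; by edgeR, adjusted p = 0.353). Ido2, a second enzyme for the same first step, was low throughout, at 5.004, 10.3 and 6.66 CPM across Control, against 14.4, 27.9 and 12.2 CPM across TSDP. Afmid, which hydrolyses formylkynurenine, varied least of the 31, with 6.03 CPM ± 0.567 across Control, against 8.86 CPM ± 1.72 across TSDP (SD, n = 3 each). Exons of Afmid overlap Tk1 on the opposite strand, and the strand setting of the counting is not given, so reads of the 2 genes cannot be told apart there.

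Further down that route, Kynu, kynureninase, stood at 1.02, 13.8 and 4.55 CPM across Control, against 53.7, 65.2 and 31.3 CPM across TSDP, a log2 fold change of 2.96 ± 0.87 (SE). Kmo, the hydroxylase of kynurenine, and Haao, the dioxygenase of 3-hydroxyanthranilate, averaged 8.47 and 8.12 CPM across Control, against 40.1 and 44.6 CPM across TSDP. Acmsd, the decarboxylase that diverts the route away from NAD, was the least counted member in Control 4 and 5 per transcript length; it stood at 0.278, 1.72 and 0.795 CPM across Control, against 8.35, 8.35 and 3.54 CPM across TSDP. Its log2 fold change was 2.86 ± 0.69 (SE; by edgeR, adjusted p = 0.326). All 7 genes of the route had an unadjusted p under 0.05, against 8.60% of all genes as higher. Macrophages also express Kmo and Kynu: 5 general macrophage markers summed to 936, 944 and 514 CPM in Control 3, 4 and 5 and to 726, 996 and 789 CPM across TSDP 1, 2 and 5. That sum overlapped between the groups. The Kupffer sum given above did not, but Control 4 at 121 CPM and TSDP 5 at 123 CPM nearly met. Of the 5 Kupffer markers, 2 were higher without overlap, against 13.0% of all genes tested. Another stood highest in Control 3, where it gave 28.4 CPM of the summed 39.6 CPM. The part of these cells in the result was not tested.

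The methionine cycle held the 2 genes with the most counts over all libraries, Bhmt and Mat1a, and 2 of its 6 genes had an unadjusted p under 0.05, against 8.60% of all genes as higher. Mat1a (ENSMUSG00000037798), which makes S-adenosylmethionine in mature liver, stood at 1.70, 223 and 26.7 CPM across Control 3, 4 and 5, against 424, 751 and 282 CPM across TSDP 1, 2 and 5. The log2 fold change of 2.53 had an SE of 1.45 (edgeR adjusted p = 0.473), with Control 4 at 131-fold the level of Control 3. Bhmt, which remethylates homocysteine with betaine, was the 1 gene whose groups overlapped: 1.11, 331 and 43.5 CPM across Control, against 378, 748 and 286 CPM across TSDP. Control 4 stood above TSDP 5, as it did for the sum of the hepatocyte markers, though not for each of them. The log2 fold change of Bhmt was 1.91 ± 1.53 (SE, edgeR adjusted p = 0.598). Gnmt, the glycine methyltransferase that uses up surplus S-adenosylmethionine, averaged 12.3 CPM ± 16.9 across Control, against 82.2 CPM ± 32.3 across TSDP (SD, n = 3 each).

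Of the transsulfuration pair, Cbs, cystathionine beta-synthase, stood at 0.834, 34.1 and 9.20 CPM across Control, against 92.4, 139 and 51.5 CPM across TSDP. Cth, the gamma-lyase that releases cysteine, stood at 3.77, 13.9 and 4.03 CPM across Control, against 39.7, 71.7 and 32.6 CPM across TSDP. The 2 genes had almost equal log2 fold changes, 2.68 and 2.73, but the SE was 1.13 for Cbs and 0.61 for Cth, whose Control values spread less. Cth had the smallest DESeq2 adjusted p of the 31, 5.11e-05. Ahcy, which hydrolyses S-adenosylhomocysteine in all cells, was counted at 53.0, 84.8 and 52.0 CPM across Control, against 123, 158 and 113 CPM across TSDP, a log2 fold change of 1.05 ± 0.24 (SE; by edgeR, adjusted p = 0.326).

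Among the enzymes that load folate with single-carbon units, Dmgdh and Sardh, neighbouring steps in the mitochondrial oxidation of choline-derived methyl groups, had different values in Control 3. Dmgdh stood at 0.185, 30.3 and 7.71 CPM across Control 3, 4 and 5, against 72.9, 121 and 52.5 CPM across TSDP 1, 2 and 5. Sardh stood at 27.6, 48.5 and 31.4 CPM across Control, against 86.0, 109.9 and 64.1 CPM across TSDP. Control 3 was thus at 0.226% of the TSDP mean for Dmgdh and at 31.9% for Sardh. Shmt1, the cytosolic serine hydroxymethyltransferase, had the closest Control values among the genes of this group, 27.2, 26.7 and 23.6 CPM, and stood at 50.3, 71.7 and 41.3 CPM across TSDP. Its log2 fold change was 1.07 ± 0.21 (SE; by edgeR, adjusted p = 0.326); its exons overlap those of Smcr8 on the other strand. Gldc and Amt, the P and T proteins of the glycine cleavage system, averaged 15.3 and 7.19 CPM across Control, against 63.7 and 16.5 CPM across TSDP.

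Agxt, the peroxisomal transaminase that detoxifies glyoxylate, stood at 0.154, 11.4 and 4.30 CPM across Control, against 57.5, 85.9 and 35.7 CPM across TSDP. The groups did not overlap, and its log2 fold change of 3.49 ± 1.16 (SE) was the third largest of the 31 (edgeR adjusted p = 0.334). The histidine route was represented by Uroc1, urocanase, Amdhd1, imidazolonepropionase, and Ftcd, which passes the formimino group to folate. Amdhd1 stood at 0.154, 6.90 and 2.86 CPM across Control, against 24.8, 48.2 and 18.8 CPM across TSDP, and Uroc1 and Ftcd averaged 8.54 and 8.02 CPM across Control, against 51.8 and 52.1 CPM across TSDP. All 3 were nearly uncounted in Control 3, with 3, 5 and 8 reads for Uroc1, Amdhd1 and Ftcd. Aass, the first enzyme of lysine degradation, also had 3 reads there, which is 0.0927 CPM with an exact Poisson 95% upper bound of 0.271 CPM for counting error only. It stood at 12.2 and 2.51 CPM in Control 4 and 5 and at 26.5, 35.8 and 15.4 CPM across TSDP. Prodh, proline dehydrogenase, had its groups closest together after Bhmt: 2.56, 8.19 and 4.50 CPM against 14.6, 22.3 and 8.54 CPM.

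Cdo1, cysteine dioxygenase, which commits cysteine to taurine, stood at 10.9, 179 and 37.5 CPM across Control, against 377, 714 and 280.3 CPM across TSDP. Counted per transcript length it was the most abundant of the 31 in 5 of the 6 libraries, with 556.6 to 1236 TPM (transcripts per 1000000, from exon lengths) in TSDP, while Fah led in Control 3 at 79.7 TPM. Csad, the next enzyme towards taurine, stood at 9.58, 38.1 and 19.2 CPM across Control, against 94.2, 168 and 54.2 CPM across TSDP, a log2 fold change of 2.24 ± 0.61 (SE; by edgeR, adjusted p = 0.326); its exons overlap Zfp740 on the other strand. Uox, urate oxidase, a peroxisomal enzyme of purine breakdown, stood at 0.834, 152 and 21.6 CPM across Control, against 318, 415 and 208 CPM across TSDP. Like Mat1a, Uox had a wide error (2.43 ± 1.44 SE on the log2 scale, edgeR adjusted p = 0.488).

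The 31 genes fell into different levels in Control 3, the library with the fewest hepatocyte marker counts. The limits used here, 1% and 20% of the TSDP mean, were chosen after the values had been seen and carry no test. In Control 3, 15 genes lay below 1%, as did the summed hepatocyte markers at 0.293%: Tat, Hpd, Hgd, Tdo2, Mat1a, Gnmt, Bhmt, Cbs, Dmgdh, Agxt, Aass, Uroc1, Amdhd1, Ftcd and Uox, with 3 to 55 reads each. Between 2.04% and 16.9% lay 9 genes: Kmo, Kynu, Haao, Acmsd, Cth, Gldc, Prodh, Cdo1 and Csad. The other 7, Fah, Ido2, Afmid, Ahcy, Sardh, Shmt1 and Amt, lay at 24.5% to 70.5% with 131 to 1717 reads. Both values that define these sets also enter the fold change and its SE, so the sets differ in these by construction. The median log2 fold change was 2.70, 2.46 and 1.08 in the 3 sets, and the SE ran from 1.07 to 1.53 in the first and from 0.20 to 0.41 in the last.

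**Figure D2:**
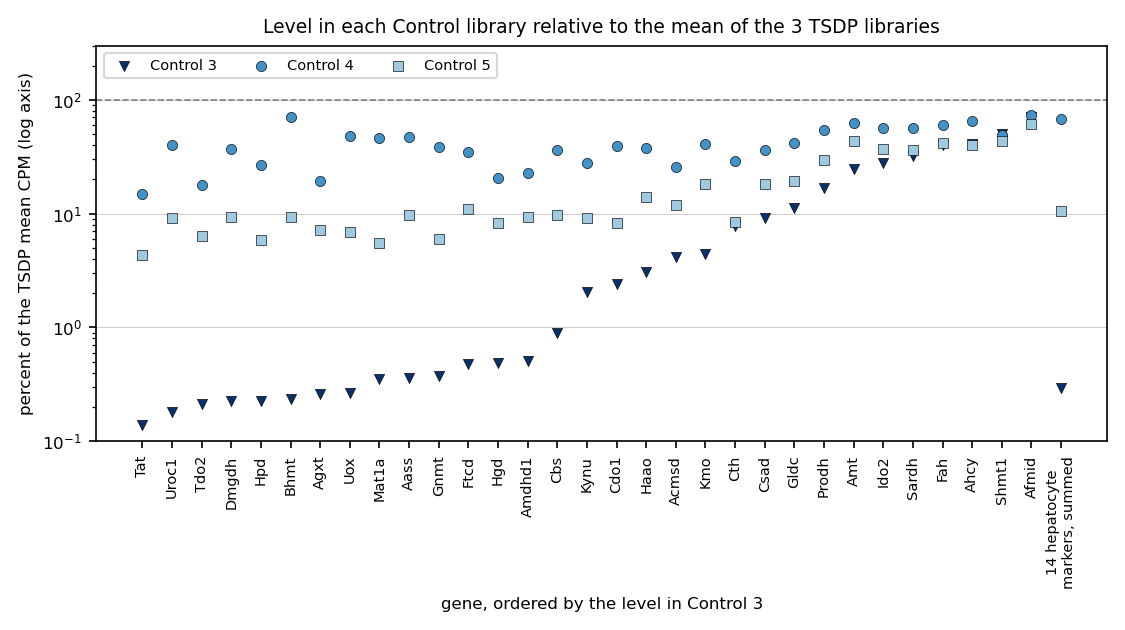
Each point is the level of 1 gene in 1 Control library as a percentage of the mean of the 3 TSDP libraries, on a log axis, with genes ordered by Control 3 and the summed hepatocyte markers at the far right; the dashed line is 100%. All points lie below 100%, and Control 3 runs from 0.138% for Tat to 70.5% for Afmid.

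Without Control 3, all 31 log2 fold changes stayed positive, between 0.56 and 3.38 with a median of 1.95. An unadjusted edgeR p under 0.05 was then reached by 27 of the 31, against 6.58% of all genes that were higher at that level, and adjusted p-values lay between 0.543 and 0.710. With the hepatocyte marker level of each library as a covariate, the 31 stayed positive as well, with a median of 1.05 (lowest 0.05 for Bhmt, highest 2.08 for Tat). In that fit 26 of the 31 had an unadjusted p under 0.05 as higher, against 3.89% of all genes, and adjusted p-values lay between 0.204 and 0.982. The fit has 3 residual degrees of freedom, and its covariate itself differs between the groups. It gave 25 of the 31 (3.81% of all genes) without Control 3 and 15 (2.21%) without Control 4, with all 31 positive in both. Bhmt was at 0.05 ± 0.17 (SE) in the covariate fit and Tat at 2.08 ± 0.35, with edgeR adjusted p-values of 0.982 and 0.258.

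**Figure D3:**
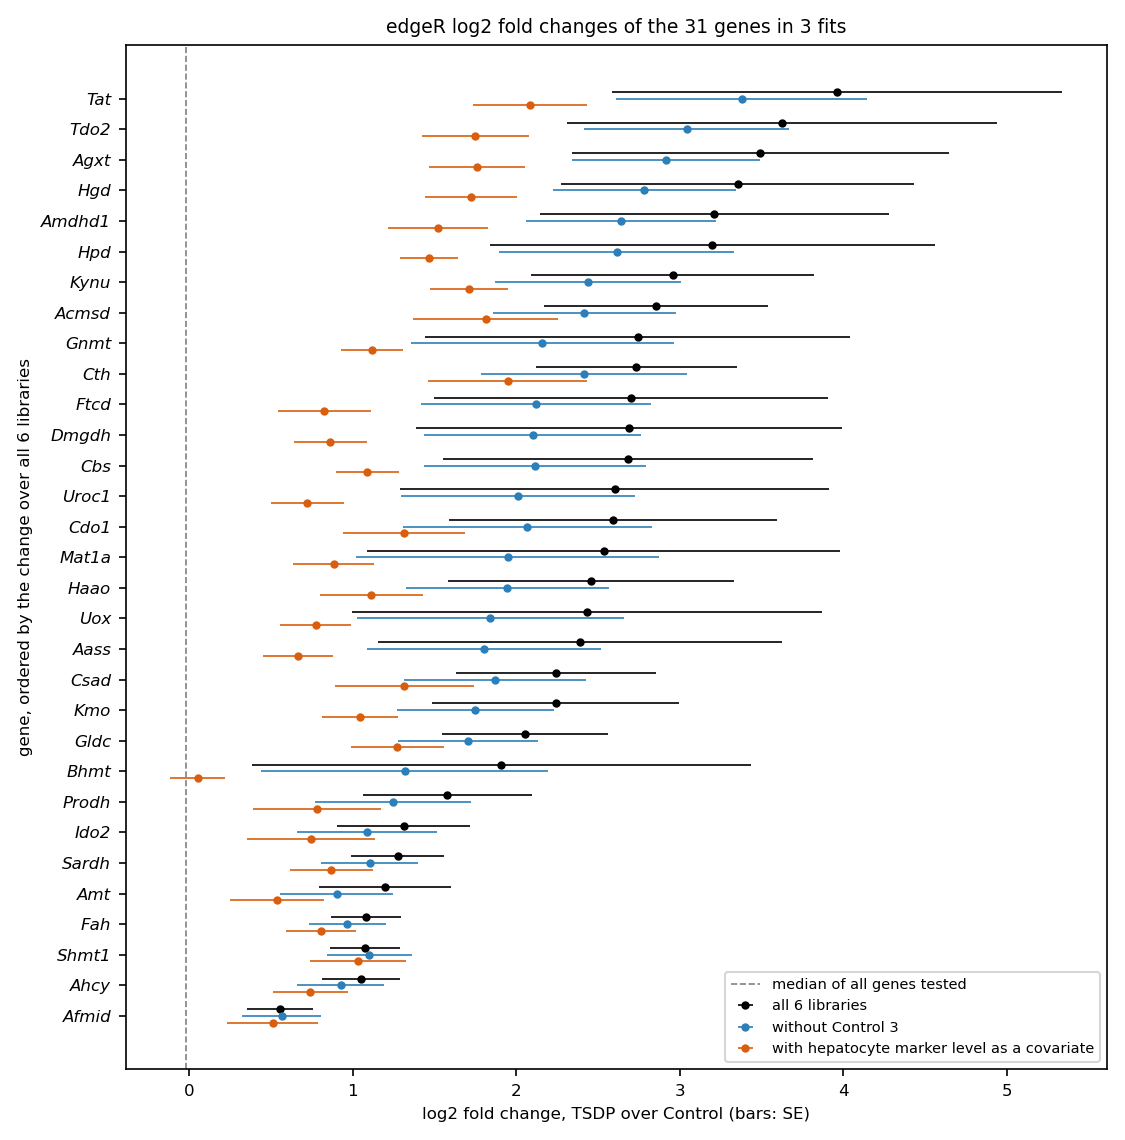
Points are edgeR log2 fold changes (TSDP over Control) with SE bars for the 31 genes in 3 fits: all 6 libraries (black), without Control 3 (blue) and with the hepatocyte marker level as a covariate (orange); the dashed line is the median of all genes tested at -0.02. All points lie to the right of 0, and the covariate moves Bhmt from 1.91 to 0.05 and Tat from 3.96 to 2.08.

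Dividing each gene by the hepatocyte markers of its own library showed how far the genes kept pace with them. Bhmt kept a nearly fixed ratio, with 9.43, 12.3 and 10.4 counts per 1000 marker counts in Control 3, 4 and 5 and 11.2, 11.4 and 13.5 for TSDP 1, 2 and 5. Tat stood at 2.88, 1.35 and 2.54 for Control, against 4.53, 6.46 and 7.72 for TSDP, without overlap. Tdo2 gave 7.33, 2.69 and 6.29 for Control, against 12.2, 9.09 and 10.6 for TSDP. Hpd, Dmgdh, Agxt and Uroc1 were also above all Control values in every TSDP library, which makes 6 of the 31 with Tat and Tdo2, against 0.804% of all genes tested. Of the 14 hepatocyte markers, divided by the same sum, 3 were higher without overlap, a share close to that of the 31. The divisor is itself higher on average in TSDP, which lowers this ratio for genes that do not vary with it. No member was lower without overlap, against 19.2% of all genes. With Alb alone as the divisor there were 5 and with the geometric mean of the markers 3 (Tat, Tdo2 and Uroc1). The Control 3 value of Uroc1 rests on 3 reads: 0.786 per 1000 marker counts with an exact Poisson 95% interval from 0.162 to 2.30, which spans its TSDP values of 1.35, 1.20 and 1.46. The interval of Tdo2, from 4.87 to 10.6, likewise reaches its lowest TSDP value, and that of Tat, from 1.44 to 5.16, reaches TSDP 1. For Hpd, Dmgdh and Agxt the upper bounds of 8.72, 3.42 and 3.06 in Control 3 also pass the lowest TSDP value, so for all 6 genes the separation from Control 3 was within counting error.

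Control 4 had the highest hepatocyte marker level of the Control libraries. It was the lowest of the 6 by this ratio for 23 of the 31 genes, against 5.27% of all genes tested. For 25 of the 31 it stood below all 3 TSDP libraries, against 6.56% of all genes. The divisor includes markers such as Fga, which stood higher in Control 4 than in TSDP 5. The part of such markers in this ratio, and in the covariate fit, was not tested. In Control 3 the ratio was 410.4 for Fah, 449.7 for Ahcy, 234 for Sardh and 231 for Shmt1, which were well counted where the markers were nearly absent. Leaving out Control 3 raised the number of genes higher without overlap from 6 to 13, and leaving out Control 4 raised the number lower without overlap from 0 to 13. Fewer libraries separate more easily for any gene, and no share of all genes is given for these settings. The counts are therefore not read as a trait of the 31.

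**Figure D4:**
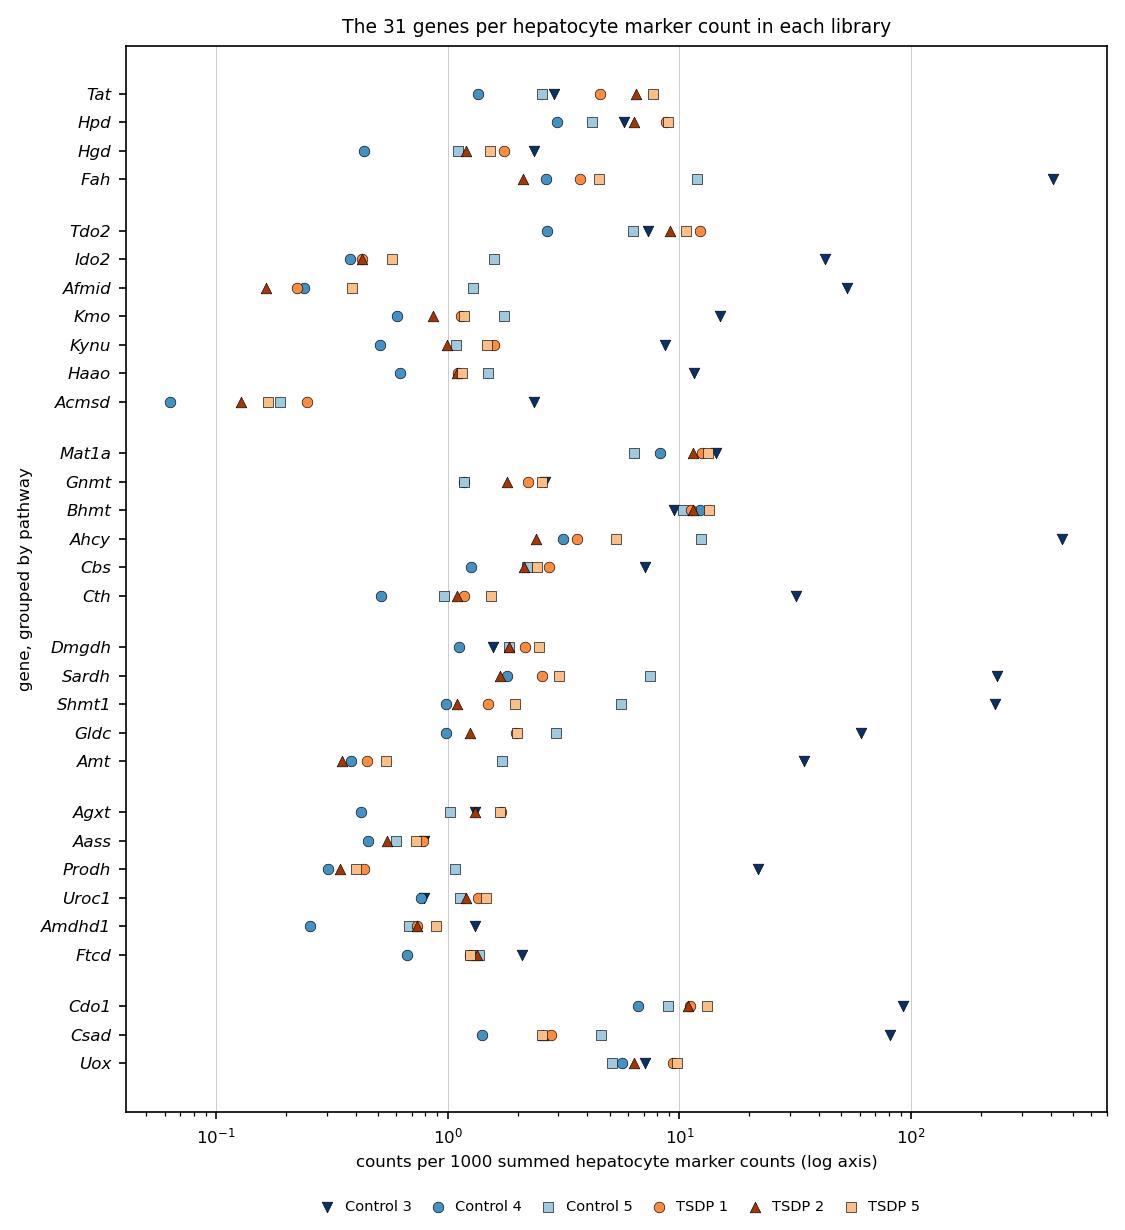
Each point is the number of counts of 1 gene per 1000 counts of the 14 hepatocyte markers in the same library, on a log axis, with colours as in the plot of CPM by library. Bhmt lies between 9.43 and 13.5 in all 6 libraries, Tat is higher in every TSDP library than in any Control library, and Fah, Ahcy, Sardh and Shmt1 lie above 200 in Control 3.

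Other genes of the same pathways had smaller median fold changes. Of 32 further liver enzymes of amino acid breakdown, 30 were tested and all 30 had positive log2 fold changes with a median of 1.27. At an unadjusted p under 0.05 there were 23, all higher, against 8.60% of all genes tested as higher, and 0 passed the adjusted threshold. The member with the smallest p was Aldh7a1, an aldehyde dehydrogenase of lysine and choline breakdown, at 62.6 CPM ± 8.15 across Control, against 132.9 CPM ± 22.0 across TSDP (SD, n = 3 each). Branched-chain amino acid breakdown, which is not centred on the liver, had 18 of 18 positive with a median of 0.57. At an unadjusted p under 0.05 there were 15 of the 18, all higher, against 8.60% of all genes tested. Without overlap, 16 were higher, against 13.0% of all genes. Its gene with the smallest p, Hibadh, a valine enzyme, averaged 61.4 and 107.7 CPM. Of 15 further folate and methyl genes of liver, 12 were positive and 3 negative with a median of 0.48. An unadjusted p under 0.05 was reached by 7, all higher, against 8.60% of all genes. Mthfd1, the trifunctional cytosolic folate enzyme, averaged 54.9 and 76.7 CPM, and Mtrr, the reductase that keeps methionine synthase active, 26.2 and 21.7 CPM.

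Serine synthesis and folate genes linked to cell growth were centred near 0. Of 14, 7 were positive and 7 negative, with a median of 0.01; 0 were at an unadjusted p under 0.05 as higher and 1 as lower, against 4.75% of all genes that were lower at that level. The 1 gene was Mthfd1l, the mitochondrial formate-releasing enzyme, at 46.4, 33.3 and 39.03 CPM across Control, against 28.5, 25.2 and 29.9 CPM across TSDP (log2 fold change -0.51 ± 0.15 SE, edgeR adjusted p = 0.334).

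The related enzymes of other tissues had log2 fold changes between -0.22 and 0.03, and none passed the test. Mat2a, the methionine adenosyltransferase of growing and non-liver cells, averaged 159 CPM ± 9.22 across Control, against 143 CPM ± 11.3 across TSDP (SD, n = 3 each), which gave a log2 difference of -0.15 ± 0.11 (SE; by edgeR, adjusted p = 0.572). Per transcript length, the ratio of Mat1a to Mat2a was 0.0134, 1.95 and 0.211 for Control 3, 4 and 5, against 3.61, 6.65 and 2.80 for TSDP 1, 2 and 5. The liver form thus exceeded the other in Control 4 and in every TSDP library, and the groups did not overlap. Shmt2, the mitochondrial counterpart of Shmt1, averaged 104.9 and 107.4 CPM, and the ratio of Shmt1 to Shmt2 was 0.181, 0.223 and 0.191 for Control, against 0.375, 0.607 and 0.275 for TSDP. Ido1, the interferon-induced tryptophan dioxygenase, averaged 9.47 CPM ± 4.40 and 9.21 CPM ± 3.42 (SD, n = 3 each), and Ahcyl1, a relative of Ahcy, 162 and 159.7 CPM. Bcat1, the cytosolic branched-chain transaminase, averaged 3.47 and 2.98 CPM. For these 5 genes edgeR adjusted p-values lay between 0.572 and 0.976, and whether their changes differ from those of the liver forms was not tested.

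**Figure D5:**
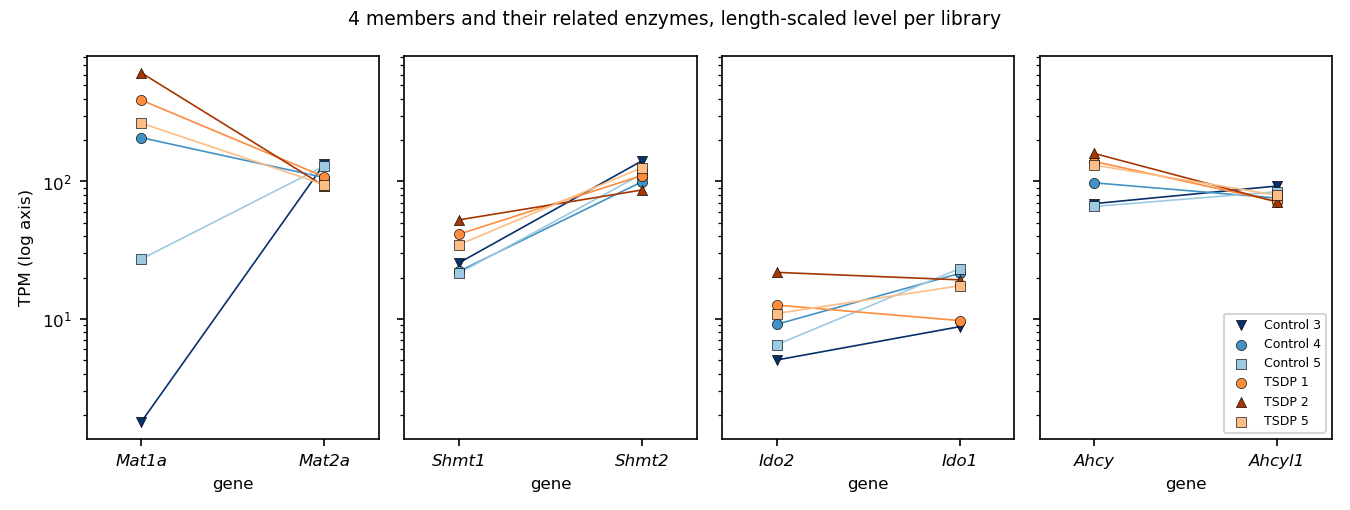
For 4 pairs of related enzymes, lines join the length-scaled level (TPM, log axis) of a member of the 31 on the left and its relative on the right in each library. Mat1a spreads from 1.79 to 616 TPM while Mat2a lies between 92.7 and 134 TPM, and the ratio within each pair is higher in every TSDP library than in any Control library.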

How the data were processed

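Raw read counts per gene, deposited by the authors as whole numbers, were the basis of every value. The authors also deposited a signal table, in which each library's counts are scaled by a single constant; per the file headers it names gene symbols, the sole content used from it. The submitters' processing notes name Trimmomatic 0.38, HISAT2 2.1.0 and featureCounts 2.0.0; for build, annotation and strand setting nothing is given in the sources used here. All 55536 gene IDs of the table are those of GENCODE M21 (GRCm38), whose exon lengths gave TPM; exon overlaps come from it too.

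Genes were tested with edgeR 4.0.16 in R 4.3.3: genes were kept by filterByExpr at a minimum count of 10, libraries scaled by TMM, and groups compared by glmQLFit and glmQLFTest, with p-values of 17423 genes adjusted by Benjamini-Hochberg (threshold 0.05). SE values were derived as the size of the log2 fold change over the square root of F. DESeq2 1.42.0, limma 3.58.1 (voom), other scaling, no filter, a hepatocyte marker covariate and leaving out each library were alternatives. CPM use TMM-scaled library sizes. The steps were tested on simulated data. The labels show replicates as separate samples by title alone, so the p-values reflect only how far these samples spread, which may be technical. No library repeated another: the lowest chi-square per gene between any pair was 47.7. Members and gene lists were chosen with earlier results of these data known. Every member is named; of each other pathway list, the gene with the smallest p in each direction; and the related enzymes of other tissues; 2 genes that this rule names are not reported here. Intervals cover counting error only.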

Additional observations from a re-analysis of the deposited data

How the results depend on the processing

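Each of the 31 log2 fold changes stayed positive under every alternative run. DESeq2 moved 10 of the 31 past the threshold; in the other settings their calls did not change. The number of genes called as higher was 0 in the fit reported, 1 without the filter on low counts, and 547 with DESeq2, which also called 73 as lower. Leaving out 1 library gave 0 calls in both directions in edgeR. With the hepatocyte covariate and without Control 3 it called 6 as higher and 16 as lower, none of them among the 31. The median log2 fold change of the 31 ranged from 1.95 to 4.15 when 1 library was left out, and was 1.05 with the hepatocyte covariate, 0.87 with it and without Control 3, and 1.07 with it and without Control 4. With limma-voom it was 3.56. Members at an unadjusted p under 0.05 ranged from 8 to 31 when 1 library was left out. The share of all genes is given only without Control 3, with 27 of the 31 against 6.58%. Members without overlap numbered 30 to 31 when 1 library was left out and 29 with total counts as the only scaling. No share of all genes is given for these settings, and fewer libraries separate more easily for any gene. Per hepatocyte marker count, members higher without overlap numbered 3 with the geometric mean as divisor. Leaving out 1 library gave 6 to 13 higher and 0 to 13 lower, with no share of all genes given for these settings. The covariate fit of each single gene, and the alternatives that leave out a library from the covariate fit or the ratio, were chosen after seeing the data. The cause of these differences was not tested. No paired analysis was possible because the groups share only replicate number 5. Depth limits the values of genes with few reads in Control 3, such as Aass and Uroc1 with 3 each.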
